A study of Mus musculus with 9 samples.

Results

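The genes described are the collagen chains and the matrix and contractile genes of hepatic stellate cells, measured in the livers of mice that lack Cth, with and without betaine, and of wild-type (WT) mice. Members were taken by symbol: every collagen alpha chain gene (Col, a type number, a and a chain number), together with Acta2, Tagln, Des, Pdgfrb, Tgfb1, Timp1, Timp2, Lum, Dcn, Lox, Loxl1, Fbn1, Sparc and Spp1. Of 58 genes with such a symbol, 54 were above 0 in at least 1 library, of 25420 genes above 0 and 54532 genes listed. They are 40 collagen genes and 14 others. The study sequenced total RNA of whole liver in 9 libraries, 3 for each of 3 groups. In the first group, Cth knockout mice drank water with 1% betaine. The second group held Cth knockout mice given plain drinking water, and the third WT mice given plain drinking water. The deleted enzyme, cystathionine gamma-lyase, splits cystathionine to yield cysteine and can release hydrogen sulfide, and betaine gives a methyl group to homocysteine in liver. The labels give no sex, age, strain, duration of treatment or kind of knockout allele, and they do not say that the 3 libraries of a group come from separate animals, so all p-values measure the spread between these samples.

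Collagens are triple helices of alpha chains. The fibrillar types I, III and V form the fibres of fibrotic scar and portal tissue, types IV, XV and XVIII belong to basement membranes and their border, and type VI forms beaded filaments. In healthy liver, stellate cells of the sinusoids, portal fibroblasts and vascular smooth muscle supply most fibrillar collagen. When stellate cells are activated by TGF-beta and PDGF they gain smooth muscle actin and deposit collagen, and lysyl oxidases crosslink the fibres while tissue inhibitors of metalloproteinases slow their removal.

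Levels are FPKM (fragments scaled to exon length and to a total for each library), so they can be set side by side between genes. Over genes above 0 in all libraries, the median log2 ratio to the gene's mean was 0.012 in the lowest and in the highest library. The deposited values were thus already aligned between libraries on that median. Cth was at 0.319, 0.309 and 0.781 FPKM in betaine-treated knockout livers, at 0.583, 0.278 and 0.770 FPKM in knockout livers, and at 285, 257 and 219 FPKM in WT livers. WT replicate 3 stood apart: it had 26.6 FPKM of Xist, against at most 0.0124 FPKM in the other 8 libraries, and 0 reads from Y-linked genes, where the others had between 1512 and 2393. Judged by these transcripts, WT replicate 3 was a female liver and the other 8 libraries were male, so the WT group held both sexes. Results are therefore given with and without WT replicate 3. Each library held 15183246 to 17471492 reads on genes, recovered from the FPKM and exon lengths. All 13 hepatocyte markers checked were above 0 in every library, with summed levels of 43710 to 65350 FPKM in betaine-treated knockout, 59600 to 73300 FPKM in knockout and 61170 to 78020 FPKM in WT livers. The hepatic stellate cell markers, 22 genes of which none is a member, were all above 0 in at least 1 library. They summed to 171 to 200.0 FPKM in betaine-treated knockout livers, 184 to 230.4 FPKM in knockout livers, and 218, 161 and 288 FPKM in WT replicates 1, 2 and 3.

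Differences were tested with limma on log2(FPKM + 0.5) over the 11852 genes whose mean over the libraries reached 0.5 FPKM, with Benjamini-Hochberg adjustment over all of them and a threshold of 0.05. This scale understates the change of genes with low values. Of the 54 members 25 reached that mean, 15 collagens and 10 others. In knockout against WT livers 1 of them, Col5a3, passed the threshold and was higher, where 25.6% of all tested genes passed. In betaine-treated against untreated knockout livers no member passed, where 0.0422% of all tested genes did, and in betaine-treated knockout against WT livers none passed, where 11.7% did. Without WT replicate 3 the counts were 5, 1 and 3 of 25, all higher, where 21.7%, 2.3% and 12.0% of all tested genes passed in either direction. As higher, 9.99% of all tested genes passed in the first of these contrasts and 5.59% in the last. Whole liver was sequenced, so fewer cells of a type and less RNA per cell cannot be told apart in any of these values.

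The levels of the members spanned several orders of magnitude. Col18a1, a basement-membrane collagen that hepatocytes make and whose end fragment is endostatin, averaged 138 FPKM over the 9 libraries. It was followed by Spp1 with 28.2 FPKM, Dcn with 18.2 FPKM, Sparc with 13.5 FPKM, Col14a1 with 6.62 FPKM, Col4a1 with 4.78 FPKM and Col5a3 with 4.54 FPKM. Only Col18a1, at 112 to 165 FPKM, was clear of its neighbour in this order, and from Spp1 to Col13a1 the library ranges of neighbours overlapped. Col18a1 made up 77.5 ± 3.37% of the summed collagen FPKM in betaine-treated knockout livers, 76.3 ± 1.63% in knockout livers and 83.5 ± 6.15% in WT livers (SD, n = 3 each). The 2 chains of type I collagen, the main fibre of scar, ranked 16th and 19th. The 29 members under the mean of 0.5 FPKM had means from 0.000585 FPKM for Col11a1 to 0.485 FPKM for Col16a1.

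Type I and type III chains had their 3 lowest values in WT replicates 1 and 2 and in betaine-treated replicate 3. Col1a1 lies on chr11:94936224-94953042 (GRCm38, plus strand). It had 2.85, 3.73 and 0.958 FPKM in betaine-treated knockout livers, 2.15, 2.43 and 1.22 FPKM in knockout livers, and 0.784, 0.737 and 1.70 FPKM in WT livers. The second type I chain, Col1a2, had 1.47, 2.05 and 0.811 FPKM with betaine, 1.86, 1.50 and 1.17 FPKM in knockout livers, and 0.817, 0.521 and 1.50 FPKM in WT livers. Both chains overlapped between all pairs of groups, with WT replicate 3 the highest WT library and replicate 3 the lowest betaine-treated one. Col3a1, the only chain of type III collagen, had 5.02, 6.96 and 3.02 FPKM with betaine, 3.82, 4.52 and 3.16 FPKM in knockout livers, and 1.83, 1.68 and 3.86 FPKM in WT livers. Again it was WT replicate 3 that overlapped with the knockout values. On the log2 scale Col3a1 differed by 0.61 ± 0.32 (SE) between knockout and WT livers, with a limma adjusted p of 0.184, and by 0.90 ± 0.32 between betaine-treated knockout and WT livers, with a limma adjusted p of 0.0977. When WT replicate 3 was left out it was higher by 0.93 ± 0.28 in knockout and by 1.22 ± 0.28 in betaine-treated knockout livers than in WT livers, with limma adjusted p of 0.0458 and 0.0287. Col1a1 did not pass in any contrast: without WT replicate 3 its difference was 0.91 in knockout livers, with a 95% interval of -0.07 to 1.90, and 1.12 in betaine-treated knockout livers, with an interval of 0.14 to 2.11 and a limma adjusted p of 0.124. Col1a2 differed by 0.78 and 0.69 in the same comparisons, with limma adjusted p of 0.0784 and 0.140.

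Type V chains regulate the diameter of the fibrils they join. Col5a3, an alpha chain of type V collagen, lies on chr9:20770050-20815067 (GRCm38, minus strand) and had an exon length of 6809 bases. It had 4.72, 4.30 and 3.74 FPKM in betaine-treated knockout livers, 4.76, 7.10 and 9.26 FPKM in knockout livers, and 3.42, 2.74 and 0.779 FPKM in WT livers. All knockout libraries were above all WT libraries and above all betaine-treated libraries, and the betaine-treated libraries were above all WT libraries. The group means were 4.25 ± 0.491 FPKM with betaine, 7.04 ± 2.25 FPKM in knockout livers and 2.31 ± 1.37 FPKM in WT livers (SD, n = 3 each). Col5a3 was higher by 1.53 ± 0.39 (SE) on the log2 scale in knockout than in WT livers, a 2.88-fold ratio of FPKM + 0.5, with a limma adjusted p of 0.0234. With WT replicate 3, the lowest of the 9 libraries, left out, the difference was 1.04 ± 0.24, with a limma adjusted p of 0.0209. Leaving out knockout replicate 2 or replicate 3 gave differences of 1.50 and 1.32, with limma adjusted p of 0.0776 and 0.0755. Betaine-treated knockout livers differed from knockout livers by -0.63 ± 0.39, with a limma adjusted p of 0.37, and from WT livers by 0.90 ± 0.39, with a limma adjusted p of 0.159.

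The promoter of Col5a3 is shown because this was the only member to pass the threshold with all 9 libraries. It is the 250 bases before the RefSeq start, chr9:20815068-20815317 in GRCm38.p6, written on the minus strand. Capitals mark the CCAAT box and the GC box letters GGGCGG, which are read here on the other strand as CCGCCC.
Col5a3: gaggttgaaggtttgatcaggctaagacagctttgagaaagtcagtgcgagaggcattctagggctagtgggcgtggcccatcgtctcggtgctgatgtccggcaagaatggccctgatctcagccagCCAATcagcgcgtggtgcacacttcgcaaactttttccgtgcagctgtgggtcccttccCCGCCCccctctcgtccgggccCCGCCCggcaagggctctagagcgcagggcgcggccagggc
The CCAAT letters begin 122 bases before the start, and the GC box letters begin 63 and 41 bases before it. No TATAAA was found in this window on either strand. Among 32851 mouse promoters of the same length in the RefSeq table, 33.8% held CCAAT, 32.7% held GGGCGG and 12.4% held TATAAA, each counted on both strands. Among 46 promoters of the 42 members that matched, 16 held CCAAT, 27 held GGGCGG and 6 held TATAAA. A match describes the letters and shows no binding.

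The other fibrillar chains were lower in level. Col5a1 had 0.895, 1.10 and 0.894 FPKM with betaine, 0.802, 1.34 and 1.15 FPKM in knockout livers, and 0.591, 0.316 and 1.20 FPKM in WT livers. It overlapped between groups through WT replicate 3. With that library left out Col5a1 was higher by 0.75 ± 0.21 on the log2 scale in knockout than in WT livers (limma adjusted p of 0.0382), against 0.46 ± 0.26 with it (limma adjusted p of 0.211). Col5a2, which was under the mean of 0.5 FPKM, had 0.235, 0.608 and 0.136 FPKM with betaine, 0.262, 0.338 and 0.231 FPKM in knockout livers, and 0.271, 0.198 and 0.444 FPKM in WT livers, so the groups overlapped. Col27a1, a fibrillar collagen known from cartilage, had 2.15, 1.79 and 1.72 FPKM with betaine, 1.95, 2.49 and 2.45 FPKM in knockout livers, and 1.99, 2.09 and 0.824 FPKM in WT livers. WT replicate 3 was thus the lowest library for Col27a1 as it was for Col5a3, while it was the highest WT library for Col1a1, Col1a2, Col3a1 and Col5a1. Over the 9 libraries Col27a1 and Col5a3 had a Pearson r of 0.91 on the log2 scale, a pair picked after its values were seen and one in which both genes share that low library.

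**Figure D1:**
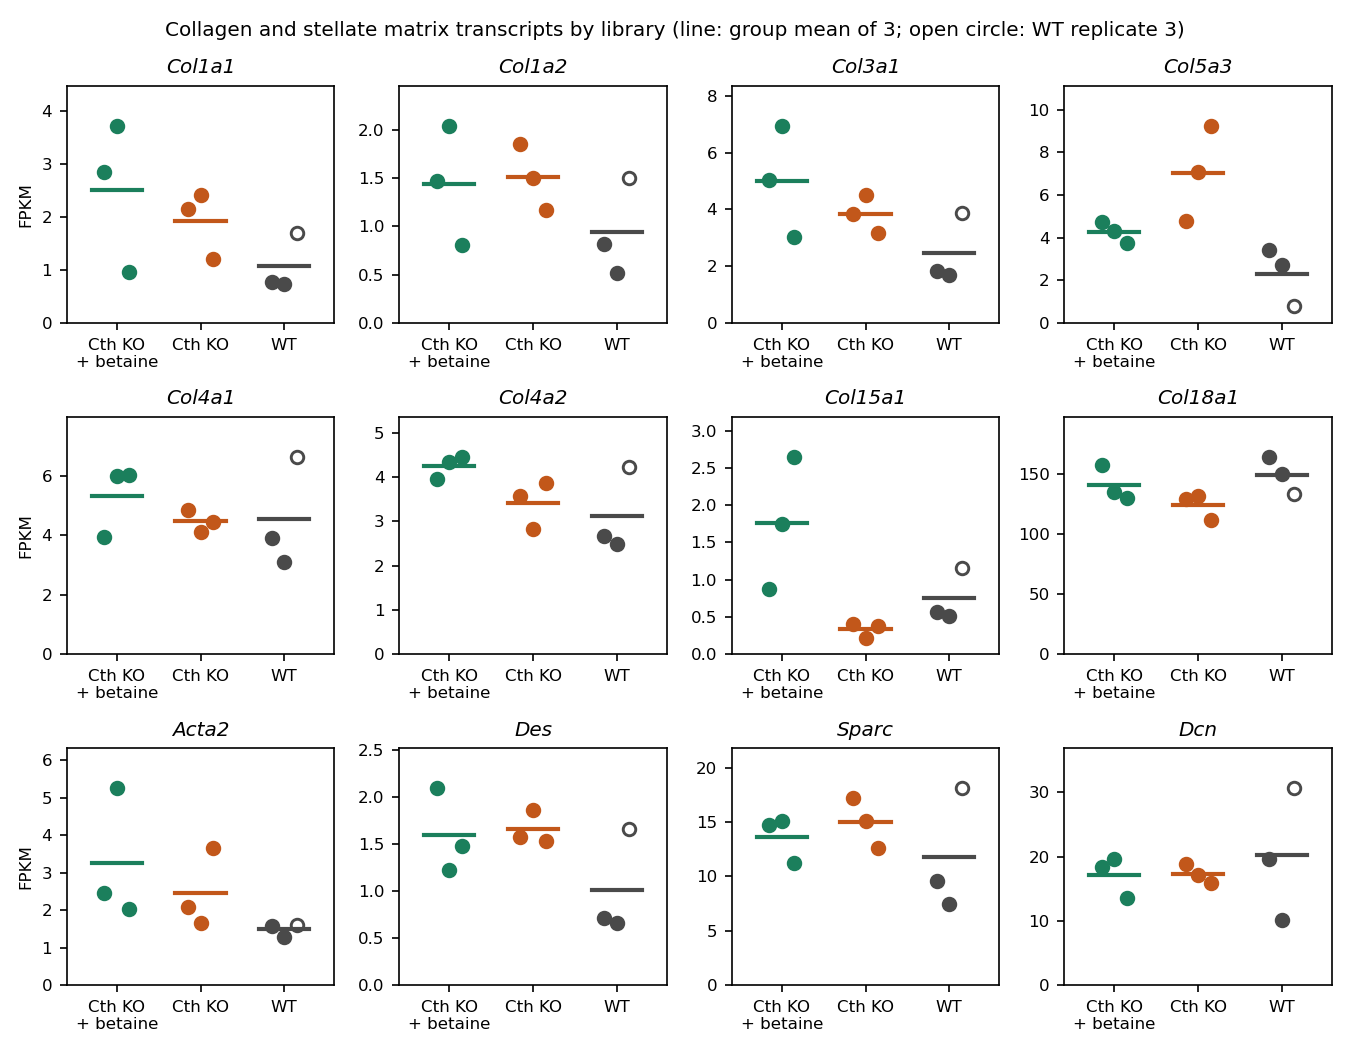
FPKM (y axis) of 12 members in each library (points), with the mean of 3 libraries as a line, for Cth knockout with betaine, Cth knockout and WT livers; the open circle is WT replicate 3. In Col1a1, Col3a1, Des and Sparc this library lies above the other 2 WT libraries, in Col5a3 it is the lowest of 9 at 0.779 FPKM, and in Col15a1 the betaine-treated libraries span 0.879 to 2.66 FPKM.

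In type VI and type XIV collagens WT replicate 3 was again the highest WT library. Col6a1 had 2.37, 2.65 and 1.34 FPKM with betaine, 1.77, 2.83 and 1.56 FPKM in knockout livers, and 1.17, 0.687 and 2.87 FPKM in WT livers. Col6a3, the longest of these chains, had 1.02, 0.934 and 0.505 FPKM with betaine, 0.835, 0.866 and 0.645 FPKM in knockout livers, and 0.531, 0.388 and 1.08 FPKM in WT livers. For both chains WT replicate 2 was the lowest and WT replicate 3 the highest of the 9 libraries. Col6a2 ranged from 0.358 FPKM in WT replicate 1 to 1.04 FPKM in betaine-treated replicate 2. Col14a1, a collagen that associates with fibril surfaces, had 7.11, 8.55 and 5.56 FPKM with betaine, 6.66, 6.97 and 5.41 FPKM in knockout livers, and 5.49, 2.90 and 10.9 FPKM in WT livers. No type VI or XIV chain passed with or without WT replicate 3. The nearest was Col6a1 without that library, with a log2 difference of 0.83 ± 0.29 between knockout and WT livers and a limma adjusted p of 0.0714.

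Type IV collagen is the network of basement membranes, and in the liver sinusoid it is present as a thin deposit. Col4a1 and Col4a2 stand head to head on chromosome 8, with RefSeq starts 21 bases apart on opposite strands. Col4a1 had 3.93, 5.98 and 6.04 FPKM with betaine, 4.85, 4.11 and 4.44 FPKM in knockout livers, and 3.92, 3.08 and 6.65 FPKM in WT livers. Col4a2 had 3.96, 4.34 and 4.47 FPKM with betaine, 3.57, 2.82 and 3.88 FPKM in knockout livers, and 2.67, 2.48 and 4.23 FPKM in WT livers. The betaine-treated libraries were above every knockout library for Col4a2, and WT replicate 3 was again the high WT library for both chains. Without it Col4a2 was higher by 0.63 ± 0.15 on the log2 scale in betaine-treated knockout than in WT livers (limma adjusted p of 0.0314), against 0.42 ± 0.19 with it (limma adjusted p of 0.164). Over the 9 libraries the 2 chains had a Pearson r of 0.83. The strand setting of the authors' counting is not given in the sources used here, so reads from the overlapping ends of this pair may be shared.

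Type XV and type XVIII collagens carry sugar chains and sit at basement membranes. Col15a1, on chr4:47208161-47313167 (GRCm38, plus strand), had 0.879, 1.75 and 2.66 FPKM in betaine-treated knockout livers, 0.408, 0.222 and 0.370 FPKM in knockout livers, and 0.570, 0.515 and 1.16 FPKM in WT livers. Every betaine-treated library was above every knockout library, and every knockout library was below every WT library. These values rest on 20 to 271 recovered reads in a library. The difference between betaine-treated and untreated knockout livers was 1.37 ± 0.31 (SE) on the log2 scale, a 2.58-fold ratio of FPKM + 0.5, and did not pass with all 9 libraries (limma adjusted p of 0.0877). It passed without WT replicate 3, with the same difference and a limma adjusted p of 0.0493, and without betaine-treated replicate 1, with 1.68 ± 0.27 and a limma adjusted p of 0.0257, where 7.41% of all tested genes passed. Between knockout and WT livers it differed by -0.55 ± 0.31, with a limma adjusted p of 0.206.

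The promoter of Col15a1 is shown because the gene gave the smallest adjusted p of any member between betaine-treated and untreated knockout livers. It is chr4:47207762-47208011 in GRCm38.p6, on the plus strand, the 250 bases before the RefSeq start.
Col15a1: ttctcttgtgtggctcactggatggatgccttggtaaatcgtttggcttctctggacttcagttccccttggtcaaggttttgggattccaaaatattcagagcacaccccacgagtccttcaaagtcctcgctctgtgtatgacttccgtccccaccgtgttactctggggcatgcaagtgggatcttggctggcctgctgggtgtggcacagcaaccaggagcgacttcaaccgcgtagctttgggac
Neither the CCAAT box nor the TATAAA and GC box letters named above are in this window on either strand, so no letters are in capitals. The absence says only that these letters are not in these 250 bases.

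Col18a1, on chr10:77052178-77166548 (GRCm38, minus strand), had 158, 135 and 130.1 FPKM in betaine-treated knockout livers, 129, 132 and 112 FPKM in knockout livers, and 165, 150.4 and 134 FPKM in WT livers. All knockout libraries were below all WT libraries. The log2 difference between knockout and WT livers was -0.26 ± 0.14, with a limma adjusted p of 0.189. With each library divided by its own FPKM sum (TPM) the median of all tested genes between knockout and WT livers was -0.32, and Col18a1 differed by -0.68 ± 0.11, with a limma adjusted p of 0.00412, where 35.6% of all tested genes passed. With quantile normalization in place of that rescaling Col18a1 differed by -0.61 ± 0.11, with a limma adjusted p of 0.0075, where 25.8% of all tested genes passed. Between betaine-treated and untreated knockout livers that rescaling set the median of all tested genes at 0.30 and Col18a1 at 0.54 ± 0.11, with a limma adjusted p of 0.0297, where 14.1% passed. Col13a1, a transmembrane collagen of cell contacts, had 0.348, 0.598 and 0.351 FPKM with betaine, 0.466, 0.444 and 0.394 FPKM in knockout livers, and 0.634, 0.881 and 0.804 FPKM in WT livers. Its WT libraries were above all knockout and all betaine-treated libraries, with log2 differences of -0.44 ± 0.19 and -0.46 ± 0.19 that did not pass (limma adjusted p of 0.108 and 0.135). On the TPM scale it was lower in knockout than in WT livers (-0.66 ± 0.22, limma adjusted p of 0.0425).

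Contractile and cytoskeletal members mark stellate cells and smooth muscle. Acta2, smooth muscle actin, the textbook marker of activated stellate cells and of vessel walls, had 2.47, 5.27 and 2.03 FPKM with betaine, 2.08, 1.66 and 3.66 FPKM in knockout livers, and 1.57, 1.29 and 1.61 FPKM in WT livers. All knockout libraries, with and without betaine, were above the 3 WT libraries, and WT replicate 3 lay beside the other WT libraries here. The log2 differences from WT were 0.82 ± 0.32 with betaine and 0.52 ± 0.32 without, and neither passed (limma adjusted p of 0.124 and 0.254). Des, the intermediate filament desmin, had 2.10, 1.22 and 1.48 FPKM with betaine, 1.58, 1.86 and 1.54 FPKM in knockout livers, and 0.710, 0.662 and 1.66 FPKM in WT livers. With WT replicate 3 left out, Des was higher by 0.86 ± 0.20 in knockout and by 0.80 ± 0.20 in betaine-treated knockout livers than in WT livers, with limma adjusted p of 0.0196 and 0.0325. With that library the differences were 0.57 and 0.51, with limma adjusted p of 0.122 and 0.203. Tagln, the actin-binding transgelin, was near the limit of detection, with 0.179, 0.109 and 0.0313 FPKM with betaine, 0.149, 0.142 and 0.101 FPKM in knockout livers, and 0.0319, 0.0329 and 0.139 FPKM in WT livers, from 1 to 6 reads a library.

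Beside these values, the summed markers of vascular smooth muscle and portal fibroblasts, 19 genes that are no members and were all above 0 in at least 1 library, were 24.8, 34.4 and 16.6 FPKM in betaine-treated knockout livers, 21.8, 24.1 and 23.0 FPKM in knockout livers, and 17.2, 19.8 and 25.6 FPKM in WT livers. Betaine-treated replicate 2, which had the highest Acta2, Col1a1 and Col3a1, also had the highest sum of these markers, and betaine-treated replicate 3, which had the lowest Col1a1, Col1a2 and Acta2 of its group, had the lowest sum. The mesothelial markers other than Krt8 and Krt18, which hepatocytes also express, summed to 2.28, 3.20 and 0.889 FPKM with betaine, 1.62, 1.83 and 1.47 FPKM in knockout livers, and 0.985, 1.36 and 3.26 FPKM in WT livers. The whole list, with Krt8 and Krt18, summed to 319 to 459 FPKM with betaine, 327 to 405 FPKM in knockout and 151 to 162 FPKM in WT livers. Krt8 and Krt18 thus made up nearly all of this sum, and the sums without them overlapped between the groups. Of the 3 tested genes of the whole list 2 were higher in knockout than in WT livers, where 12.8% of all tested genes were. In betaine-treated knockout livers 2 were also higher than in WT livers, where 696 of 11852 tested genes were. Both counts were the same without WT replicate 3, where 9.99% and 5.59% of all tested genes were higher. These counts are of the whole list, so they do not show a rise of the mesothelial markers other than Krt8 and Krt18. The part of such cells in the differences between libraries was not tested.

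Pdgfrb encodes the PDGF receptor of stellate cells and pericytes. It had 2.63, 1.92 and 1.37 FPKM with betaine, 1.97, 1.61 and 1.32 FPKM in knockout livers, and 1.29, 0.860 and 1.21 FPKM in WT livers, so that all knockout libraries with or without betaine were above the WT libraries. Its log2 differences from WT were 0.59 ± 0.21 with betaine (limma adjusted p of 0.0981) and 0.40 ± 0.21 without (limma adjusted p of 0.190). Tgfb1, the main fibrogenic ligand, had 1.31, 2.31 and 2.05 FPKM with betaine, 1.91, 2.07 and 1.81 FPKM in knockout livers, and 2.04, 3.14 and 2.16 FPKM in WT livers. The groups overlapped, and the 95% interval of the difference between knockout and WT livers was -0.71 to 0.19.

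Inhibitors, crosslinking enzymes and proteoglycans gave no member past the threshold. Timp1, an inhibitor known to rise in fibrosis, was at 0.134, 0.243 and 0.0701 FPKM with betaine, at 0.250, 0.0794 and 0 FPKM in knockout livers, and at 0, 0 and 0.0623 FPKM in WT livers, from 0 to 4 reads a library. A count of 0 allows up to 3 reads, for counting error only, so no difference was detectable at this depth. Timp2, the other inhibitor, had 3.93, 4.52 and 1.95 FPKM with betaine, 3.51, 3.67 and 2.81 FPKM in knockout livers, and 3.26, 2.89 and 6.17 FPKM in WT livers. Loxl1, an enzyme that crosslinks elastin and collagen, had 1.17, 1.60 and 0.755 FPKM with betaine, 1.14, 1.11 and 1.14 FPKM in knockout livers, and 0.635, 0.595 and 0.872 FPKM in WT livers. All untreated knockout libraries were above the WT libraries, with a log2 difference of 0.45 ± 0.20 (limma adjusted p of 0.123). Lox, the lysyl oxidase, lay between 0.0129 and 0.269 FPKM in all 9 libraries, from 1 to 24 reads.

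Lum and Dcn encode lumican and decorin, small proteoglycans that bind collagen fibrils. Lum had 2.21, 3.84 and 1.17 FPKM with betaine, 1.57, 1.21 and 0.713 FPKM in knockout livers, and 1.74, 0.989 and 5.01 FPKM in WT livers. Dcn had 18.4, 19.5 and 13.5 FPKM with betaine, 18.8, 17.1 and 15.9 FPKM in knockout livers, and 19.6, 10.2 and 30.7 FPKM in WT livers. The WT libraries alone covered the values of both other groups for Dcn and for all but the lowest knockout library for Lum. The log2 difference between knockout and WT livers was -0.09 for Dcn, with a 95% interval of -0.84 to 0.67, and -0.70 for Lum, with an interval of -1.82 to 0.42.

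Sparc, a collagen-binding matricellular protein, had 14.7, 15.1 and 11.3 FPKM with betaine, 17.2, 15.1 and 12.7 FPKM in knockout livers, and 9.60, 7.49 and 18.2 FPKM in WT livers. WT replicates 1 and 2 were the lowest of the 9 libraries and WT replicate 3 the highest. Sparc without WT replicate 3 was higher by 0.78 ± 0.18 in knockout than in WT livers (limma adjusted p of 0.0226), against 0.42 ± 0.28 with it (limma adjusted p of 0.288). Spp1, osteopontin, which bile duct cells also make, had 37.6, 16.2 and 23.8 FPKM with betaine, 41.4, 31.5 and 19.4 FPKM in knockout livers, and 15.6, 27.7 and 41.1 FPKM in WT livers. Its 3 groups overlapped throughout. Fbn1, fibrillin of the microfibrils, was under the mean of 0.5 FPKM and lay between 0.0975 and 0.474 FPKM.

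In knockout against WT livers, then, most tested members lay above zero difference while few passed. The median log2 difference of the 25 members was 0.31, beside 0.02 for all tested genes, and 18 of 25 (72.0%) were positive, beside 51.2% of all. Several members moved together over the libraries, such as Col1a1 and Col3a1 (Pearson r of 0.96), so the members counted here are not 25 separate observations. At an unadjusted p under 0.05 there were 4 members (16.0%), beside 40.0% of all tested genes. In 4 members (Acta2, Col5a3, Loxl1 and Pdgfrb) all knockout libraries were above all WT libraries, beside 23.6% of all tested genes, and in 3 members (Col13a1, Col15a1 and Col18a1) all were below, beside 23.2%. Without WT replicate 3 the members Col3a1, Col5a1, Col5a3, Des and Sparc were higher, 5 of 25 where 21.7% of all tested genes passed and 9.99% passed as higher. The member median was then 0.49, beside 0.00 for all tested genes, 15 members had no overlap and were higher, beside 28.7% of all, and 3 were lower, beside 30.3%. The TPM scale moved the member median with all 9 libraries to 0.02, beside -0.32 for all tested genes. The member median itself thus depends on the scaling, as that of all tested genes does. On both scales the member median was above that of all tested genes by a similar amount.

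**Figure D2:**
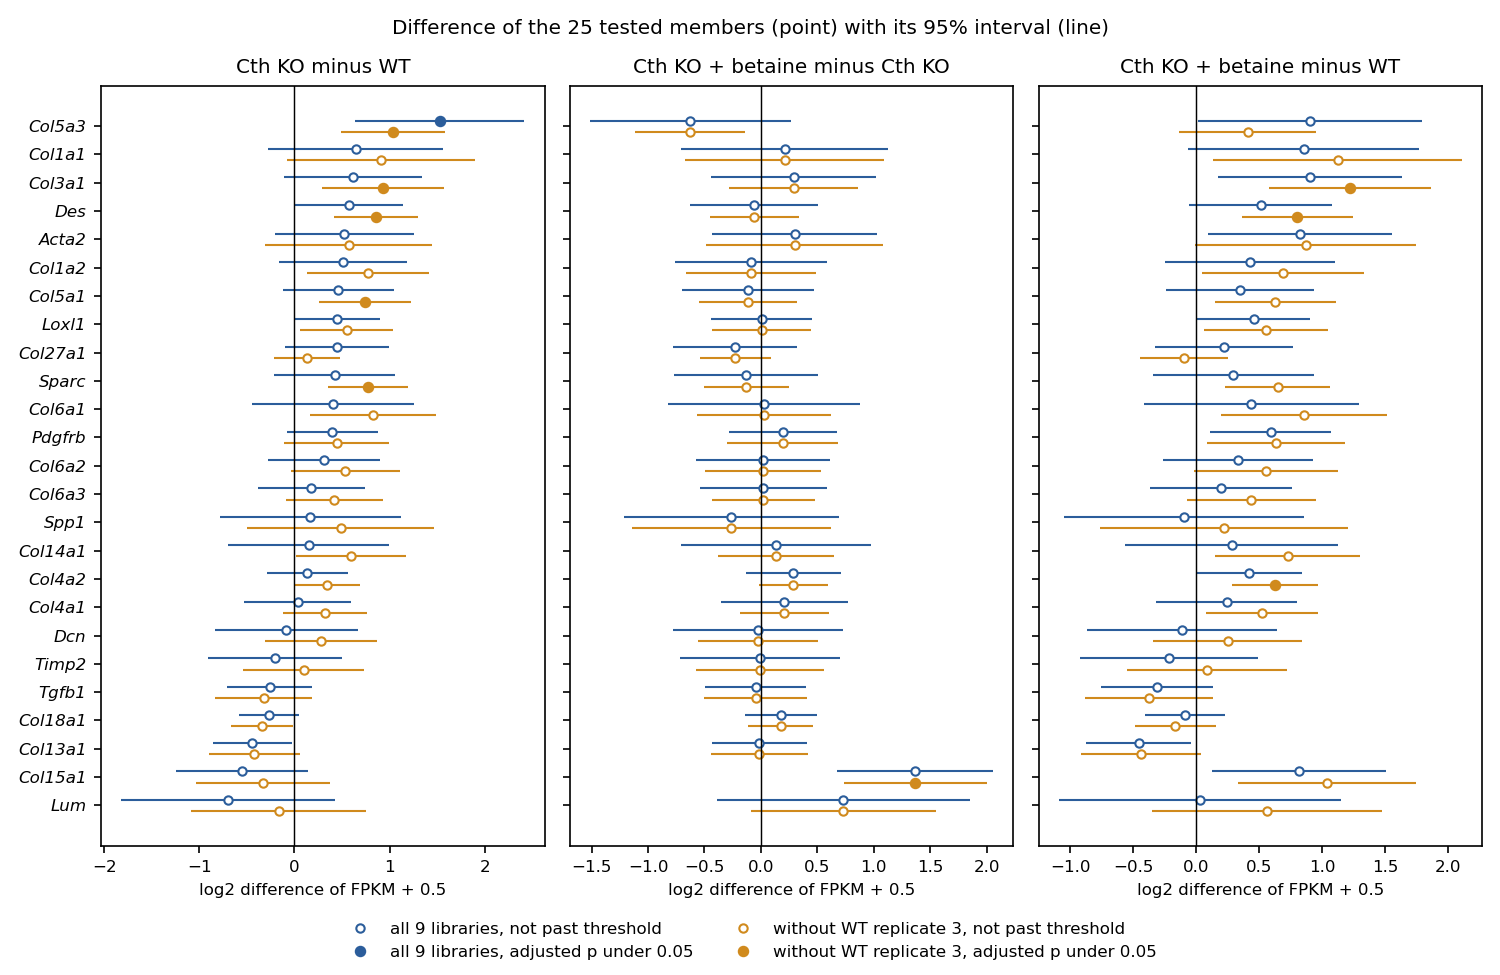
Difference on the log2(FPKM + 0.5) scale (x axis) of the 25 tested members (rows) in the 3 contrasts, with all 9 libraries (blue) and without WT replicate 3 (orange); points are estimates, lines 95% intervals, and filled points passed an adjusted p of 0.05. In knockout against WT livers 1 blue and 5 orange points are filled, and Col15a1 is the filled orange point of betaine-treated against untreated knockout livers, at 1.37.

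Between betaine-treated and untreated knockout livers the members' differences were centred near those of all genes. None of the 25 members passed in limma, where 5 of 11852 tested genes did, and 1 member had an unadjusted p under 0.05 (4.0%), beside 22.5% of all tested genes. The member median was 0.02 and 14 of 25 were positive, beside a median of 0.00 and 49.8% of all tested genes. On the TPM scale the member median was 0.31 with 24 of 25 positive and 2 passing, beside a median of 0.30 with 78.6% positive and 14.1% passing among all tested genes. Col15a1 and Col4a2 were higher in every betaine-treated than in every knockout library, where 15.6% of all tested genes were, and Col5a3 was lower in every one, where 14.7% were. Leaving out WT replicate 3 left these differences as they were and gave Col15a1 an SE of 0.28, against 0.31 with it. Col15a1 then passed, where 2.3% of all tested genes did. For Col1a1 the 95% interval of the betaine difference was -0.71 to 1.13 with all 9 libraries, and for Acta2 -0.43 to 1.03, so changes of up to about those sizes were within the error.

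Against WT livers, betaine-treated knockout livers had a member median of 0.33, beside 0.00 for all tested genes, with 19 of 25 members positive. None passed, and 7 had an unadjusted p under 0.05 (28.0%), beside 30.5% of all tested genes. Acta2, Col5a3 and Pdgfrb were higher in every betaine-treated than in every WT library, where 16.1% of all tested genes were, and Col13a1 was lower in every one, where 16.2% were. Without WT replicate 3 the members Col3a1, Col4a2 and Des were higher, 3 of 25 where 12.0% of all tested genes passed and 5.59% passed as higher. All betaine-treated libraries were then above WT replicates 1 and 2 in 15 members, beside 21.2% of all tested genes, and below them in 1, Col13a1, beside 24.4%. This comparison shares its WT libraries with the knockout comparison and its betaine-treated libraries with the betaine comparison, so the 3 are not independent.

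How far the WT libraries disagreed was itself measured. The coefficient of variation of a member within a group had a median of 32.7% in betaine-treated knockout, 15.8% in knockout and 48.2% in WT livers, beside 18.1%, 13.0% and 18.2% for all tested genes. WT replicate 2 was the lowest of the 9 libraries in 15 of 25 members (60.0%), beside 11.3% of all tested genes. WT replicate 3 was the highest in 8 members (32.0%), beside 16.6%, and betaine-treated replicate 2 in 6 members (24.0%), beside 8.44%. Within WT livers, replicate 3 was the highest of 3 in 19 members and replicate 2 the lowest in 18. The stellate marker sums had the same order in WT livers, 288 FPKM in replicate 3, 218 FPKM in replicate 1 and 161 FPKM in replicate 2. The sinusoidal endothelial marker sums were 119, 128 and 99.5 FPKM with betaine, 110.4, 125 and 103 FPKM in knockout livers, and 107, 101 and 192 FPKM in WT livers. The part of the cell mix of each sample, and of the sex-linked difference of WT replicate 3, in the members' values was not tested.

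**Figure D3:**
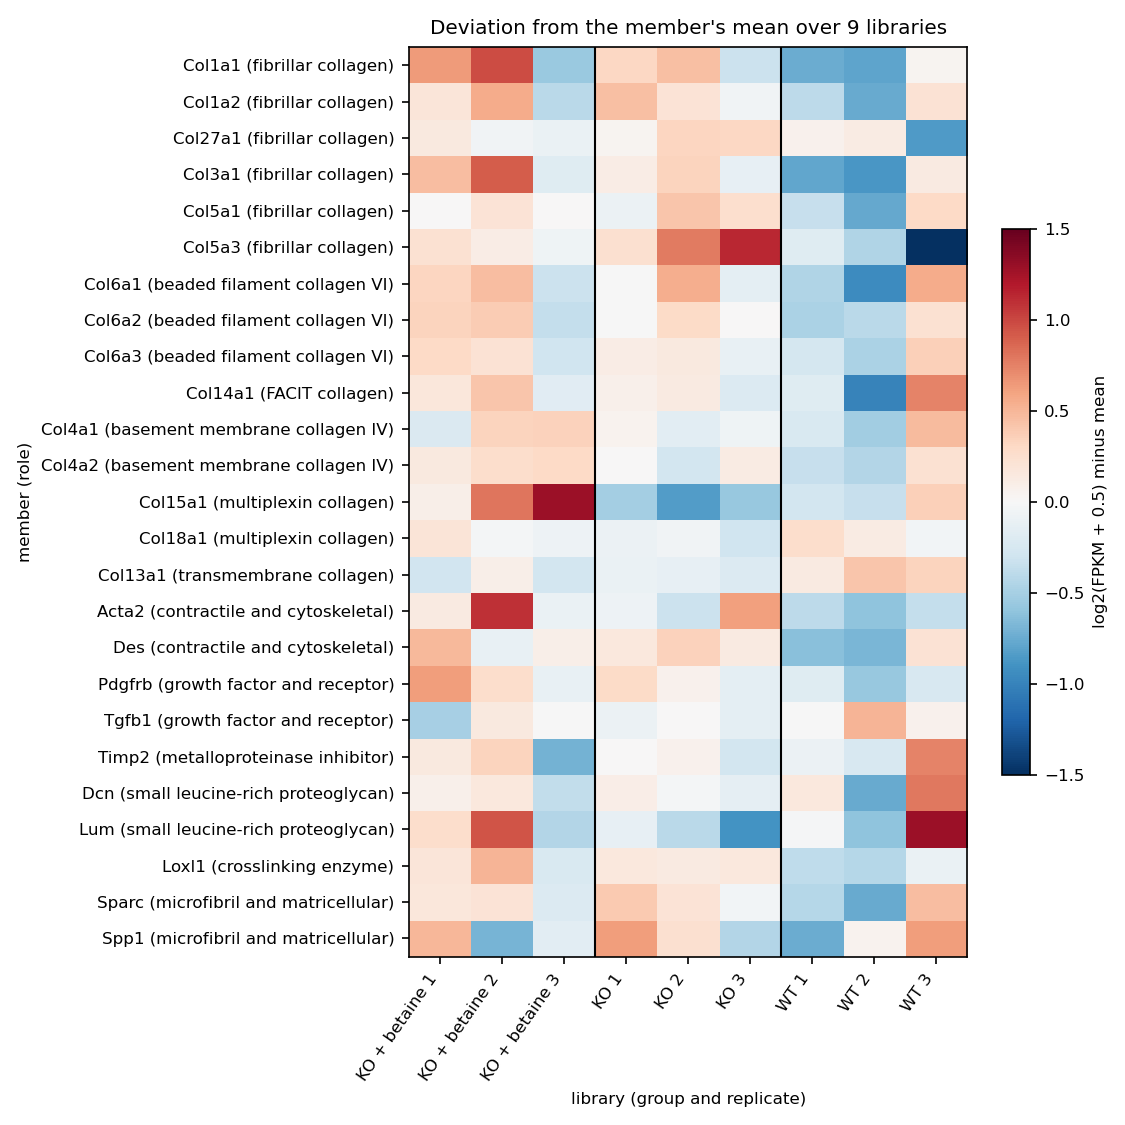
Deviation of log2(FPKM + 0.5) from the member's mean over 9 libraries (colour) for the 25 tested members (rows, by role) in each library (columns). WT replicate 2 is blue in most rows, being the lowest library in 15 of 25, and WT replicate 3 is red in most rows but dark blue in Col5a3 and Col27a1.

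The 5 genes whose pattern over the 9 libraries was most like that of Col1a1, by Pearson r of log2(FPKM + 0.5) among all tested genes, were Col3a1 (0.96), Col6a2 (0.92), Col1a2 (0.91), Loxl1 (0.91) and Myl9 (0.90). The first 4 are members, and Myl9 is a myosin light chain of smooth muscle. The points share the same libraries and groups, so these values describe likeness over these samples. Sparc had an r of 0.77 with Col1a1 and Pdgfrb 0.81. Col18a1 stood away from this pattern with an r of -0.13, as did Col15a1 with 0.08.

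The genes that act on collagen from outside the member list were counted by list. No list value was corrected for exon length, with which the difference between knockout and WT livers moved over all genes. Of the fibrogenic signalling genes, 26 of 34 that are not members were tested, and in knockout against WT livers none was higher and 7 were lower, where 12.7% of all tested genes passed as lower, with a list median of -0.42 beside 0.02 for all tested genes. They included Smad4, the common partner of the signalling Smads (a log2 difference of -0.78 ± 0.14, limma adjusted p of 0.00724), Smad2, a Smad activated by the TGF-beta receptors (-0.65 ± 0.16, limma adjusted p of 0.0188), Bmp6, a ligand of the same family (-0.98 ± 0.20, limma adjusted p of 0.0110), and Ski, which represses Smads (-0.86 ± 0.20, limma adjusted p of 0.0152). The list thus holds activators and repressors among the genes that fell. Without WT replicate 3 there were 6 lower and none higher, where 1383 of 11852 tested genes passed as lower. With betaine, 2 were lower than in WT livers, Smad4 and Bmp6, where 11.7% of all tested genes passed in either direction. Without WT replicate 3 these were Smad4 and Smad7, an inhibitory Smad, where 12.0% passed. None passed between betaine-treated and untreated knockout livers with all 9 libraries, where 0.0422% of all tested genes did. Without WT replicate 3 Tgfbr2, a TGF-beta receptor, was higher with betaine (0.84 ± 0.17, limma adjusted p of 0.0493), where 2.3% passed.

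Collagen synthesis and secretion genes moved in both directions. Of 21 tested, 4 were higher and 4 lower in knockout than in WT livers, where 12.8% and 12.7% of all tested genes were. The 4 lower genes had the smallest p, and the 4 higher ones were named after their values were seen. Serpinh1, the collagen chaperone of the endoplasmic reticulum, had 8.29, 7.16 and 8.23 FPKM with betaine, 12.0, 9.09 and 9.18 FPKM in knockout livers, and 3.64, 4.36 and 7.31 FPKM in WT livers, and was higher by 0.96 ± 0.22 in knockout livers (limma adjusted p of 0.0157). Pcolce, which speeds removal of the collagen end peptide, had 2.66, 2.70 and 2.17 FPKM with betaine, 2.63, 2.71 and 2.30 FPKM in knockout livers, and 1.16, 0.719 and 1.68 FPKM in WT livers. It was higher in knockout livers by 0.89 ± 0.20 (limma adjusted p of 0.0148), as were Ppib, a prolyl isomerase, by 0.77 ± 0.17 (limma adjusted p of 0.0130), and Sec13, a coat protein of secretory vesicles, by 0.42 ± 0.11 (limma adjusted p of 0.0253). The lower genes were Mia2 and Mia3, which help load large cargo such as collagen at the exit of the endoplasmic reticulum, with log2 differences of -0.75 ± 0.11 and -0.79 ± 0.12, Colgalt1, a collagen galactosyltransferase, with -1.15 ± 0.21, and P4ha1, a collagen prolyl hydroxylase, with -0.59 ± 0.13 (limma adjusted p of 0.0058, 0.00627, 0.00816 and 0.0127). With betaine, 1 was higher than in WT livers and 4 were lower, where 11.7% of all tested genes passed in either direction. Pcolce was the higher gene, by 0.87 ± 0.20 (limma adjusted p of 0.0283), and the lower genes included Mia3 and P4ha1 (-1.01 for both). None passed between betaine-treated and untreated knockout livers. Leaving out WT replicate 3 again gave 4 higher and 4 lower in knockout than in WT livers. There 21.7% of all tested genes passed in either direction. P3h3, a prolyl hydroxylase family member, then passed (0.69 ± 0.18, limma adjusted p of 0.0300) and Sec13 no longer did. In that fit 2 were higher and 5 lower in betaine-treated knockout than in WT livers, where 12.0% of all tested genes passed. Colgalt1 was then higher in betaine-treated than in untreated knockout livers (1.05 ± 0.21, limma adjusted p of 0.0493), where 2.3% passed.

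The counts of the next lists stand beside these shares of all tested genes. In knockout against WT livers 12.8% passed as higher and 12.7% as lower, and 21.7% passed in either direction without WT replicate 3. In betaine-treated knockout against WT livers 11.7% passed in either direction, and 12.0% without that library. Between betaine-treated and untreated knockout livers 0.0422% passed, and 2.3% without that library. Matrix degradation genes gave 2 lower of 12 tested in knockout against WT livers. Timp3, a matrix-bound metalloproteinase inhibitor, differed by -1.37 ± 0.35 (limma adjusted p of 0.0219) and Adamts1, a metalloproteinase, by -0.57 ± 0.17 (limma adjusted p of 0.0344), and without WT replicate 3 neither passed. Among 24 other matrix genes Fn1, fibronectin, was lower in knockout livers by 0.85 on the log2 scale (-0.85 ± 0.17, limma adjusted p of 0.0104), and with betaine Nid2, a basement membrane linker, was lower than in WT livers (-0.57 ± 0.15, limma adjusted p of 0.0380). Fn1 also passed without WT replicate 3, and Nid2 did not. Of 20 tested stellate cell markers that are not members, none was higher and 2 were lower in knockout livers, Tmem56 (-1.04 ± 0.17, limma adjusted p of 0.00649) and Vipr1, a receptor for vasoactive intestinal peptide (-0.55 ± 0.17, limma adjusted p of 0.0430), and Vipr1 no longer passed there without WT replicate 3. With betaine 3 were lower than in WT livers, these and Cxcl12, a chemokine (-0.49 ± 0.13, limma adjusted p of 0.0380), and these 3 passed without that library too. None of the 11 smooth muscle and portal fibroblast markers, 15 macrophage markers or 6 lymphocyte and neutrophil markers tested passed in any contrast, with or without WT replicate 3. Of 18 sinusoidal endothelial markers Cd36 was higher (1.15 ± 0.29, limma adjusted p of 0.0208) and Kdr lower (-0.80 ± 0.25, limma adjusted p of 0.0436) in knockout livers, and without WT replicate 3 Cd36 passed and Kdr did not. With betaine, Cd36 was higher (2.13 ± 0.29, limma adjusted p of 0.00633), and Fcgr2b (-0.93 ± 0.23, limma adjusted p of 0.0341) and Clec4g (-0.55 ± 0.15, limma adjusted p of 0.0490) were lower than in WT livers; without that library only Cd36 passed, and it was also higher in betaine-treated than in untreated knockout livers (0.99 ± 0.21, limma adjusted p of 0.0499). Cd36 is also a fatty acid transporter of hepatocytes. Of 8 tested bile duct markers 1, Slc4a2, was lower in knockout livers (-0.62 ± 0.14, limma adjusted p of 0.0162), and without WT replicate 3 Sox9 was lower as well (-1.10 ± 0.28, limma adjusted p of 0.0284). Of 13 tested hepatocyte markers 3 were higher and 2 lower in knockout than in WT livers, and without WT replicate 3 none was higher and 2 were lower. With betaine none was higher and 2 were lower than in WT livers, and without that library 1 was lower.

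Exon length moved with the knockout difference over all genes, and collagen genes are long. Tested members had a median exon length of 6349 bases, beside 3798 bases for all tested genes. The shortest length bin of all genes had a median log2 difference between knockout and WT livers of 0.54, and the median fell with length. Of the 25 members 18 lay above the median of their own length bin. With the length trend removed in each library the member median was 0.38 and again 1 member, Col5a3, passed, where 18.6% of tested genes did. With WT replicate 3 also left out 7 members were higher (Col1a2, Col3a1, Col4a2, Col5a1, Col5a3, Des and Sparc). There 16.0% of tested genes passed in either direction, and 886 of 11842 passed as higher. In betaine-treated knockout against WT livers 6 members were higher in that fit (Col3a1, Col4a1, Col4a2, Col5a1, Col15a1 and Des). There 11.6% of tested genes passed in either direction, and 692 of 11842 passed as higher.

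**Figure D4:**
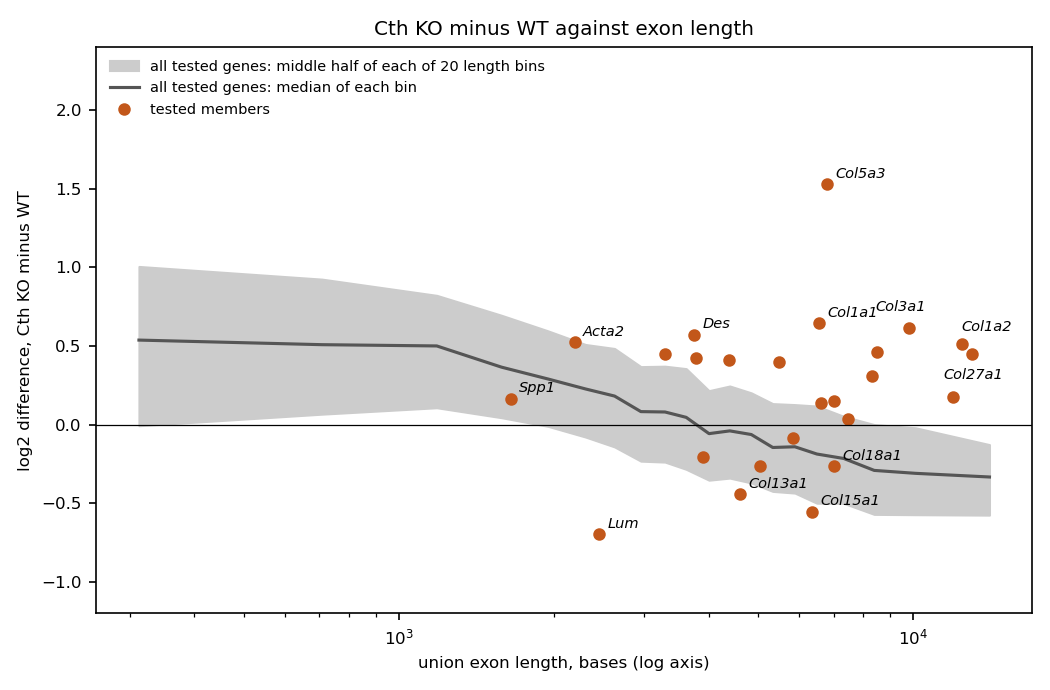
Log2 difference between knockout and WT livers (y axis) against the union exon length in bases (x axis, log scale): points are the 25 tested members, the line is the median of all tested genes in each of 20 length bins and the band holds their middle 50%. The line starts at 0.54 in the shortest bin and ends below 0, and 18 of 25 members lie above it.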

How the data were processed

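Mouse liver RNA was measured in 9 libraries, 3 in each of 3 groups taken from the sample labels. The deposited table holds FPKM values that the authors computed, 1 per gene and library, with 54532 genes and no raw counts. HISAT2 2.0.5, featureCounts 1.5.0-p3, DESeq2 1.16.1 and the mm10 genome are named, without roles, per the submitters' processing notes. The strand setting and the read total used for FPKM are not given in the sources used here. The protocol in the labels gives no batch or date.

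Gene symbols and the union of each gene's exons were read from the GENCODE M21 annotation of GRCm38, the mm10 assembly, and were found for 54409 genes. FPKM times length gave whole reads, within 0.05, for 98.3% to 98.6% of values of up to 20 reads, with fitted read totals of 13513377 to 18528020, so 3 reads on 1 kilobase of exon correspond to 0.162 to 0.222 FPKM. These reads were used only to state depth and cover counting error only. Promoters came from the RefSeq table for GRCm38.p6.

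The test kept genes averaging 0.5 FPKM or more. Values were log2(FPKM + 0.5), fitted in limma 3.58.1 under R 4.3.3 with 1 mean per group (lmFit, then eBayes with trend and robust), two-sided, with Benjamini-Hochberg adjustment over 11852 genes. Summaries used Python 3.11.15. The fit was checked on simulated data. The exon length trend was removed by a loess of each library's deviations on log2 length (span 0.5).

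The members, gene lists, tests and named genes were chosen with earlier results of these data known. Values in every library are given for members past the threshold in any contrast, with or without WT replicate 3, and for a list of main collagens, contractile genes, ligands, inhibitors and proteoglycans; other members are given by range, and other lists by counts with up to 4 genes of smallest p. Loxl1 and Col13a1 were added after their values were seen. Alternatives were other pseudocounts (0.1 and 1), other filters, TPM scaling, quantile normalization, length correction, a replicate block, fits of 2 groups and leaving out each library.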

Additional observations from a re-analysis of the deposited data

How the results depend on the processing

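In knockout against WT livers 1 member passed; 0 passed with no filter on low values and with only the 2 groups fitted (7.34% and 24.4% of all tested genes), 3 after rescaling to TPM (35.6%; Col5a3 higher, Col18a1 and Col13a1 lower), 2 after quantile normalization (25.8%; Col5a3 higher, Col18a1 lower), 0 to 5 with single libraries left out (0 without knockout replicate 2 or 3, where 7.56% and 14.4% of all tested genes passed, and 5 without WT replicate 3, where 21.7% did) and 7 without WT replicate 3 and the length trend (16.0%). In betaine-treated against untreated knockout livers 0 passed; 2 did on the TPM scale (14.1% of all tested genes; Col15a1 and Col18a1, higher) and 0 to 1 with single libraries left out, the 1 being Col15a1 without betaine-treated replicate 1 (7.41%) or WT replicate 3 (2.3%). In betaine-treated knockout against WT livers 0 passed; 0 to 3 did with single libraries left out, 3 without WT replicate 3 (12.0%), and 6 without it and the length trend (11.6%). Apart from the alternatives' own construction, the cause of these shifts was not tested. No called member changed direction under any alternative run. Of 520 single-member values under alternatives in each contrast, 486, 503 and 508 both kept their side of the threshold and moved by less than the within-group spread. Among values called in neither fit the sign changed in 17, 53 and 17. With the replicate number as a block 1, 0 and 0 members passed in the 3 contrasts, beside 18.6%, 0.0% and 5.66% of all tested genes. Col5a3 kept a limma adjusted p of 0.0451 between knockout and WT livers there. Libraries with the same number had correlations of deviations from -0.227 to 0.098, so no pairing by number was detected, which does not exclude one. With 3 libraries a group, the members at 0 to 6 reads a library (Timp1 and Tagln) were too low for a difference to be detectable.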
